A study of Mus musculus with 15 samples.

Results

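The contacts of a bait site at Ifng were compared between day 0 of adipocyte formation and days 1 and 2, pooled and each alone. Ifng encodes interferon gamma, a cytokine made mainly by T and natural killer lymphocytes. The comparison used 3 of the 15 samples, those labelled with the Ifng bait and days 0, 1 and 2. Each has 2 deposited files, so 6 of 27 files were compared, 4 of days 1 and 2 against 2 of day 0. All came from 3T3-L1, a mouse embryonic fibroblast line that is committed to the fat lineage and represents 1 line. Day 0 cells were preadipocytes held past confluence. Differentiation was started at day 0 with fetal calf serum, insulin, dexamethasone and 3-isobutyl-1-methylxanthine, and serum with insulin was given at day 2. Days 1 and 2 are labelled as an intermediate stage, and the labels do not say whether day 2 cells were taken before or after that change of medium. Whether the files of a day are separate cultures is not stated, so p-values measure only the spread between these libraries, which may be technical.

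In 4C-seq, which reads all ligation partners of 1 chosen site, chromatin is fixed and cut, and ends that lie near each other are ligated. The fragments joined to a chosen bait are then amplified and read, so reads at a site measure how often it lay near the bait. Contacts fall off steeply with distance along the chromosome, and beyond that, active and silent regions tend to meet regions of their own kind. Fibroblasts do not normally make interferon gamma, so in 3T3-L1 the bait is taken as a silent lymphocyte gene. In the first days of the hormone programme, glucocorticoid, cyclic AMP and insulin signals switch on early regulators such as C/EBP-beta and C/EBP-delta, which precede PPAR-gamma. In RefSeq's gene order (GRCm38.p6), Ifng is flanked on its low-coordinate side by Iltifb and Il22, which encode interleukin-22 cytokines, and then by Mdm1 and Rap1b. On its high-coordinate side follow Dyrk2, which encodes a protein kinase, Cand1 and Grip1. Genes within windows are not named, because positions here are of build mm9 and the gene table at hand is of another build.

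The bait site, the HindIII site with the most reads in every library, lay on chromosome 10 at 117870359 to 117870364 bp (mm9). The 6 libraries held 844042 to 2075226 reads. The bait site alone took 61.3% and 58.7% of reads on day 0, 93.2% and 79.9% on day 1, and 58.55% and 80.15% on day 2. After all sites within 10 kb of the bait were left out, 715133 and 330928 reads remained on day 0, 117963 and 356480 on day 1, and 802403 and 385905 on day 2. The usable depth of days 1 and 2 therefore spanned that of day 0, and the first day 1 library was the shallowest. The deposited names number the libraries of each day 1 and 2, and the 3 libraries of a number resembled each other near the bait whatever the day. In all 8 windows of 100 kb centred from 280 to 980 kb on the high side of the bait, every library numbered 1 held a larger share of chromosome 10 reads than every library numbered 2. The share in number 1 was 1.66 to 2.65 times that in number 2, with medians of 2.19 on day 0, 1.99 on day 1 and 2.1 on day 2. Since each day has 1 library of each number, values within a number are given beside the pooled ones.

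Chromosome 10 as a whole held a similar share of contacts on all 3 days. It took 70.3% and 67.5% of the reads outside the bait zone on day 0, 69.9% and 70.35% on day 1, and 71.4% and 69.6% on day 2. The day 0 mean was 68.9% ± 1.94 (SD, n = 2), and that of the 4 later libraries was 70.3% ± 0.814 (SD, n = 4). The groups overlapped, and the difference of 1.41 percentage points was within the spread (two-sided exact permutation p = 0.4). With 4 libraries against 2, no such test can give a p below 0.133. The difference was 0.383 points within number 1 and 2.43 points within number 2, and it was 1.21 points on day 1 and 1.6 points on day 2.

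The neighbourhood of Ifng took a nearly constant share of all chromosome 10 reads, though not once a distant stretch was left out. Sites between 10 kb and 1 Mb of the bait took 51.85% and 51.85% of chromosome 10 reads on day 0, 52.1% and 52.3% on day 1, and 50.7% and 52.3% on day 2. The mean difference was 0.0125 points (exact permutation p = 0.8), and it was -0.415 points within number 1 and 0.44 points within number 2. Within 100 kb of the bait, the low side took 11.8% and 12% of chromosome 10 reads on day 0 and between 11.1% and 12.45% on days 1 and 2. The high side took 11.1% and 12.25% on day 0 and between 11.1% and 12.7% afterwards. A site that held at least 1 read is called captured. Of 56 sites at 10 to 100 kb, 39 were captured in all 6 libraries and 17 in none. On the low side, 53.57% of sites were captured in every library with this bait, day 6 and the B lymphocyte line included. Capture did not vary there even between cell lines, so it cannot show whether contacts changed between days.

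**Figure D1:**
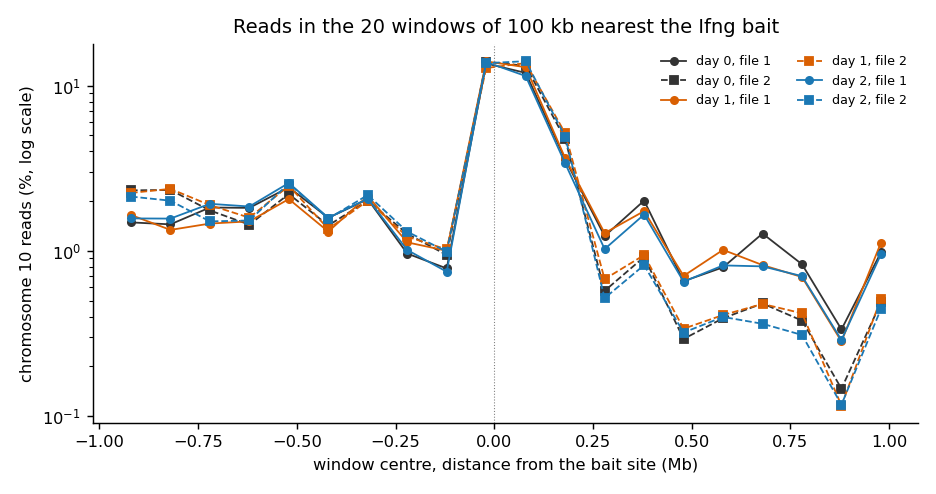
Share of chromosome 10 reads (log scale) in the 20 windows of 100 kb nearest the Ifng bait against distance from the bait site, with 1 line per library. The 3 libraries numbered 1 lie above the 3 numbered 2 in all 8 windows centred 280 to 980 kb on the high side, whatever the day.

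The 20 windows of 100 kb nearest the bait were tested with all other windows of the chromosome. The window with the bait, at 117.8 to 117.9 Mb, held 13.6% and 14% of chromosome 10 reads on day 0, 14% and 12.8% on day 1, and 13.9% and 13.7% on day 2. The next window up held 12% and 13.2%, then 12.95% and 13.7%, then 11.45% and 14.1%. In both windows the days overlapped. The fitted log2 changes of the 20 windows ran from -0.46 to 0.17 with a median of 0.04, and their median SE was 0.50. None had an unadjusted p under 0.05, and the smallest adjusted p was 0.892 (edgeR's quasi-likelihood test, Benjamini-Hochberg over all windows tested). The most different was the window at 118.5 to 118.6 Mb, with 1.27% and 0.48% of reads on day 0, 0.82% and 0.477% on day 1, and 0.8055% and 0.362% on day 2. Its log2 change was -0.46 ± 0.43 (SE), and the gap between the numbers was larger than that between the days. The fit did not test the shares, as it used counts scaled by TMM over the chromosome 10 windows. So scaled, the window with the bait held 116900 to 123800 in libraries numbered 1 and 194100 to 226700 in those numbered 2. Its SE was 0.79, although its shares ran only from 12.8% to 14%. The fit could therefore detect only large changes near the bait, and its p-values cannot show whether the shares were constant.

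A distant stretch at 106.5 to 108 Mb, 9.87 to 11.4 Mb from the bait on the low side, held the largest block of long-range contacts. It took 47.9% and 63% of the chromosome 10 reads over 1 Mb from the bait on day 0, 43.5% and 62% on day 1, and 45.4% and 64.4% on day 2. The libraries split by number and not by day: the mean was 45.6% ± 2.18 (SD, n = 3) for number 1 and 63.1% ± 1.22 (SD, n = 3) for number 2. Days 1 and 2 differed from day 0 by -1.62 points (exact permutation p = 0.667), by -3.42 points within number 1 and by 0.187 points within number 2. In the B lymphocyte line, read once with this bait, the stretch took 9.38% of such reads.

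**Figure D2:**
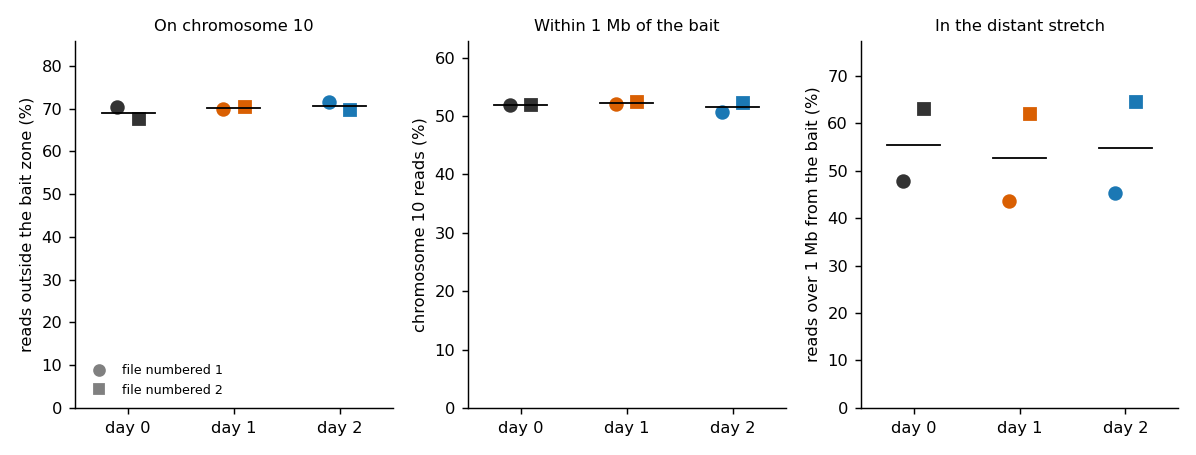
Percentage of reads on chromosome 10, within 1 Mb of the bait, and in the distant stretch, by day. Each point is a library, circles are files numbered 1, squares files numbered 2, and bars are means of 2. In the stretch, squares (62% to 64.4%) lie above circles (43.5% to 47.9%) on every day.

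Of the 493 HindIII sites of the stretch, 327 were captured in all 6 libraries, 55 in none and the others in some. A library captured between 69.98% and 83.16% of them. The 10 sites with the most reads took 11.55% to 15.9% of its reads in a library, and 5 of them were among those 10 in all 6 libraries. The inner window at 106.6 to 106.7 Mb held 2.91% to 5.26% of chromosome 10 reads over the 6 libraries, and that at 106.8 to 106.9 Mb held 2.853% to 4.755%. Its edge windows held almost nothing: 0.008% to 0.0201% at 106.5 to 106.6 Mb and 0.00708% to 0.0215% at 107.9 to 108 Mb. All 15 windows of the stretch overlapped between the groups. Their median log2 change was 0.06, with a range from -0.10 to 0.60, a median SE of 0.50 and a smallest adjusted p of 0.892 in the edgeR fit. That fit again used the scaled counts and not the shares. At 106.6 to 106.7 Mb the scaled counts were 24550 to 29020 in number 1 and 75160 to 85300 in number 2. Only large changes could therefore be detected there.

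Across chromosome 10 at 100 kb, no window passed. Of 1148 windows tested, 0 had an adjusted p under 0.05 in edgeR's quasi-likelihood test, a background of 0%, for days 1 and 2 together, day 1 or day 2. At an unadjusted p under 0.05 there were 79 windows (6.88%), 80 (6.97%) and 59 (5.14%) in turn, and the smallest adjusted p was 0.159, 0.0541 and 0.298. DESeq2 also called 0, and 48, 49 and 43 windows were under 0.05 without adjustment. All 4 libraries of days 1 and 2 lay above both of day 0 in 76 windows (6.62%) and below both in 102 (8.89%). The median SE of a log2 change was 0.72, so changes smaller than a few-fold in a single window were not detectable. Depth was not the only limit, as the SE still ran from 0.32 to 0.79 in the well-read 20 windows nearest the bait.

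The windows with the smallest p are described as not passing. Of the 5 higher ones for days 1 and 2 together, 4 lay between 83 and 88 Mb, at 83.4 to 83.5, 83.6 to 83.7, 85.6 to 85.7 and 87.2 to 87.3 Mb, and the fifth at 119.7 to 119.8 Mb. The window at 119.7 to 119.8 Mb held a CPM (reads scaled by TMM to the same total over the chromosome 10 windows of each library, in the usual CPM unit) of 246 and 326 on day 0, 1060 and 519 on day 1, and 530.5 and 598 on day 2. All 4 later libraries were above both of day 0, and the log2 change was 1.23 ± 0.33 (SE). Its adjusted p was 0.159 for both days together and 0.0541 for day 1, and it passed in 7 of 14 alternative fits for day 1 and in 2 of 14 for both days pooled. The day 1 adjusted p ran from 0.00179 without the second day 1 library to 0.998 with captured sites, where the log2 change was 0.26, and was 0.395 with DESeq2 and 0.763 without the first day 0 library. The pooled adjusted p ran from 0.0119 without the second day 1 library to 0.999 with captured sites, where the log2 change was 0.15, and was 0.87 with DESeq2 and 0.994 without the first day 0 library. The window at 83.6 to 83.7 Mb held 70.5 and 128 CPM on day 0, 293 and 187 on day 1, and 196 and 450 on day 2, a log2 change of 1.53 ± 0.44 (SE). The window at 87.2 to 87.3 Mb held 63.2 and 64 CPM, then 192 and 266, then 131 and 240, with a log2 change of 1.68 ± 0.48 (SE). All of these were higher in 4 of 4 libraries.

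Read numbers were small in several of the lower windows, and also in higher ones, such as 9 and 8 reads on day 0 at 85.6 to 85.7 Mb. The lower window at 49.6 to 49.7 Mb held 67 and 3 reads on day 0, 0 and 0 on day 1, and 20 and 2 on day 2. At 48.9 to 49 Mb there were 23 and 3 reads on day 0, against 0 in all 4 later libraries, where a count of 0 allows up to 3 reads each, so no fold is given. The window at 111.9 to 112 Mb was better covered, with 385 and 524 CPM on day 0, 182 and 205 on day 1, and 271 and 191 on day 2. Its log2 change was -1.07 ± 0.34 (SE) with an adjusted p of 0.235. The windows at 65.3 to 65.4 and 108.5 to 108.6 Mb had log2 changes of -1.46 and -1.05. For day 1 alone, the higher windows were those at 83 to 83.1, 83.4 to 83.5, 83.9 to 84, 95.2 to 95.3 and 119.7 to 119.8 Mb, with log2 changes from 1.47 to 2.48. The lower ones named for day 1 and not yet given lay at 103.6 to 103.7 and 112.6 to 112.7 Mb, at -2.13 and -1.45. For day 2 alone, the higher windows were at 79.4 to 79.5, 83.6 to 83.7, 85.6 to 85.7, 93.1 to 93.2 and 93.5 to 93.6 Mb. Apart from that at 79.4 to 79.5 Mb, which held 1 and 2 reads on day 0, their log2 changes ran from 1.461 to 2.285. Those lower on day 2 and not yet given lay at 6.8 to 6.9 Mb, with 42 and 16 reads on day 0 and 2 and 2 on day 2, and at 10.7 to 10.8, 33.5 to 33.6 and 65.9 to 66 Mb, from -2.62 to -1.55.

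At 1 Mb, where each window pools about 10 times as many sites, 4 of 127 windows passed for days 1 and 2 together (3.15%), 2 higher and 2 lower. On day 1 alone 5 passed (3.94%), 3 higher and 2 lower, and on day 2 alone 2 passed (1.57%), both higher. This window size was tried beside 100 kb and was chosen for a full description after its results were seen. Those that passed included, 25 windows (19.7%) had an unadjusted p under 0.05 for both days pooled, 23 (18.1%) for day 1 and 17 (13.4%) for day 2. The 3 comparisons share the day 0 libraries. The fit leaves out the file number. With the number as a block, and without the B lymphocyte library, 5 higher and 6 lower windows passed for both days pooled. Whether the numbers pair the libraries is not known.

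The window with the smallest p spanned 83000001 to 84000000 bp, centred 34.4 Mb from the bait. It held 455 and 613 CPM on day 0, 1202 and 1653 on day 1, and 1134 and 1099 on day 2. All 4 later libraries lay above both of day 0. The log2 change was 1.28 ± 0.21 (SE) with an adjusted p of 6.36e-05 in edgeR's quasi-likelihood test. It was 1.46 on day 1 (adjusted p 4.65e-05) and 1.10 on day 2 (adjusted p 0.00381), and the log2 ratio was 1.36 within number 1 and 1.17 within number 2. It passed for both days together in all 13 alternative fits, with log2 changes from 0.56 to 1.48. The smallest, 0.56, came with captured sites in place of reads (adjusted p 0.0109 in edgeR). For day 2 alone it passed in 11 of 13, and did not without the first day 0 library or without the second day 2 library (adjusted p up to 0.213). For day 1 alone it did not pass with captured sites in place of reads (adjusted p 0.162).

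The window at 93000001 to 94000000 bp, centred 24.4 Mb from the bait, was the other that rose. It held 684 and 650 CPM on day 0, 1213 and 1207 on day 1, and 1181 and 1470 on day 2. The groups did not overlap, and the log2 change was 0.91 ± 0.20 (SE) with an adjusted p of 0.0022 in the edgeR fit. The log2 ratio was 0.808 within number 1 and 1.04 within number 2. The change passed without each of the 6 libraries in turn, and did not pass with captured sites in place of reads, at a log2 change of 0.21 and an adjusted p of 0.418. For day 1 alone it passed in 6 of 13 alternative fits. That call was lost without either day 0 library or either day 1 library (adjusted p up to 0.101), with DESeq2 (0.0504), with the 6 libraries alone (0.051) and with captured sites (0.642). For day 2 alone it passed in 10 of 13, and not without the first day 0 library (0.111), without the second day 2 library (0.237) or with captured sites (0.501). A call of day 1 alone was the window at 95000001 to 96000000 bp. It held 280 and 378 CPM on day 0, 745 and 592 on day 1, and 370 and 538 on day 2, where it overlapped day 0. Its day 1 log2 change was 1.04 ± 0.30 (SE) with an adjusted p of 0.0409, and it passed in 6 of 13 alternative fits. The call was lost when any 1 of the 4 libraries of days 0 and 1 was left out (adjusted p up to 0.314), with DESeq2 (0.0753), with the 6 libraries alone (0.078) and with captured sites (0.297).

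The windows that fell were farther from the bait than those that rose. On day 0 the fallen windows held 316 and 144 reads at 35 Mb and 121 and 47 at 48 Mb. The risen windows held 258 and 99 at 83 Mb and 388 and 105 at 93 Mb. The part of coverage in the direction of change was not tested. The window at 48000001 to 49000000 bp, centred 69.4 Mb away, held 121 and 47 reads on day 0, 5 and 6 on day 1, and 75 and 21 on day 2. As CPM this was 213 and 291, then 53.2 and 33.8, then 114 and 121.5, with no overlap between groups. Its log2 change was -1.83 ± 0.52 (SE) for both days together (adjusted p 0.0436 in the edgeR fit) and -2.57 on day 1 (adjusted p 0.0368). The window at 35000001 to 36000000 bp held 557 and 892 CPM on day 0, 383 and 265 on day 1, and 482 and 272 on day 2, a log2 change of -1.03 ± 0.30 (SE) with an adjusted p of 0.0477. The log2 ratio there was -0.365 within number 1 and -1.73 within number 2. For both days pooled, each of these calls was lost in 4 of the 6 fits that left out a library: the second day 0 library and either day 1 library for both, the first day 2 library at 48 Mb and the second at 35 Mb, with adjusted p up to 0.202 and 0.655. DESeq2 called neither, with adjusted p of 0.105 and 0.152, and the 35 Mb call was also lost with captured sites (0.206). The day 1 call at 48 Mb was lost without the second day 0 library or either day 1 library (adjusted p 0.0916 to 0.188) and with DESeq2 (0.0504). The window at 49000001 to 50000000 bp passed for day 1 alone, with 442 and 353 CPM on day 0 and 213 and 62 on day 1, and overlapped day 0 on day 2. It passed in 5 of 13 alternative fits. It lost its call without either day 0 library or the second day 1 library (adjusted p up to 0.301), with DESeq2 (0.154), with the 6 libraries alone (0.0651), without the stretch (0.0739), with a bait zone of 1 Mb (0.057) and with captured sites (0.0744).

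**Figure D3:**
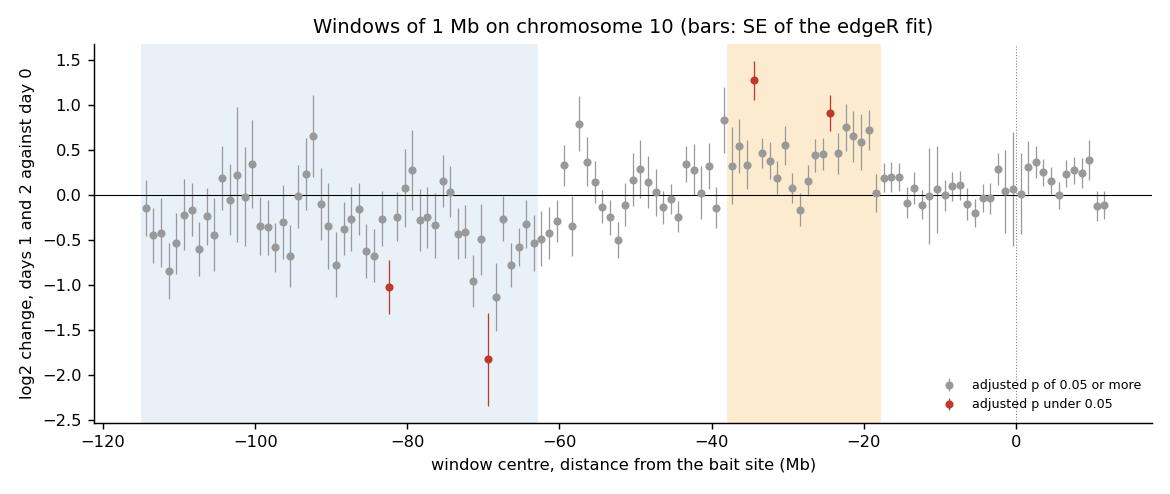
Log2 change of days 1 and 2 together against day 0 in the 127 windows of 1 Mb of chromosome 10, against distance from the bait site. Bars are the SE derived from the F statistic of the edgeR fit. Red points have an adjusted p under 0.05, the orange band lies 17.9 to 37.9 Mb from the bait and the blue band over 62.9 Mb. Of 20 windows in the orange band 19 are above 0, and of 52 in the blue band 43 are below.

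Windows of 1 Mb with the same direction lay in long runs. All 4 later libraries lay above both of day 0 in 18 windows (14.2%) and below both in 21 (16.5%). Of the 18, 9 lay at 80 to 100 Mb, and of the 21, 16 lay below 55 Mb, regions whose limits were chosen after the profile was seen. At 80 to 100 Mb, 19 of 20 windows had a log2 change above 0 and 10 an unadjusted p under 0.05, with a median log2 change of 0.46 beside -0.01 over all 127 windows. Below 55 Mb, 43 of 52 windows had a change below 0 and 11 an unadjusted p under 0.05, with a median of -0.33. The medians were 0.45 on day 1 and 0.45 on day 2 for the first region, and -0.41 and -0.24 for the second. Changes were scaled by TMM over the chromosome 10 windows and not to the chromosome total. A window is therefore higher or lower only relative to most other windows of the chromosome.

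Files numbered 1 and files numbered 2 share no library, so the change can be set side by side in each. The Pearson correlation across the 127 windows of 1 Mb between the change in number 1 and that in number 2 was 0.623. Over 1148 windows of 100 kb it was 0.158, and over 4134 windows of other chromosomes 0.0432. Windows of a library share its depth, and neighbouring windows are not independent, so these values are descriptions.

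As shares of the distant chromosome 10 reads outside the stretch, the 80 to 100 Mb region held 8.59% and 7.21% on day 0, 10.9% and 8.77% on day 1, and 10.5% and 8.88% on day 2. The groups did not overlap, with means of 7.9% ± 0.977 (SD, n = 2) and 9.76% ± 1.1 (SD, n = 4). The difference was 1.86 points, given with no test because the limits of the region were drawn on these libraries, and was 2.11 points within number 1 and 1.62 within number 2. The region below 55 Mb held 9.51% and 9.25% on day 0, 5.87% and 6.89% on day 1, and 7.3% and 6.77% on day 2. All 4 later libraries were below both of day 0. The difference was -2.675 points, likewise with no test, and was -2.925 points within number 1 and -2.43 within number 2. In reads, the groups at 80 to 100 Mb came as close as 8.59% on day 0 and 8.77% on day 1. Counted as captured sites in place of reads, the groups stayed apart in both regions, narrowly below 55 Mb. At 80 to 100 Mb the values were 17.36% and 16.17% on day 0 and 17.98% to 19.24% later. Below 55 Mb they were 21.25% and 20.38% on day 0 and 13.55% to 20.28% later. There the lowest value was in the shallowest library and the highest later value in the deepest. When the stretch was kept in the denominator the pooled groups overlapped in both. The differences were then 1.47 points within number 1 and 0.582 within number 2 at 80 to 100 Mb, and -1.31 and -0.91 below 55 Mb. On day 6 the libraries held 10.35% and 10.5% of these reads at 80 to 100 Mb and 6.92% and 7.67% below 55 Mb, on the same side of both day 0 values as days 1 and 2. That comparison uses the same day 0 libraries on which the limits were drawn, so it is no separate evidence of a change. The B lymphocyte library held 21.9% and 5.75%.

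**Figure D4:**
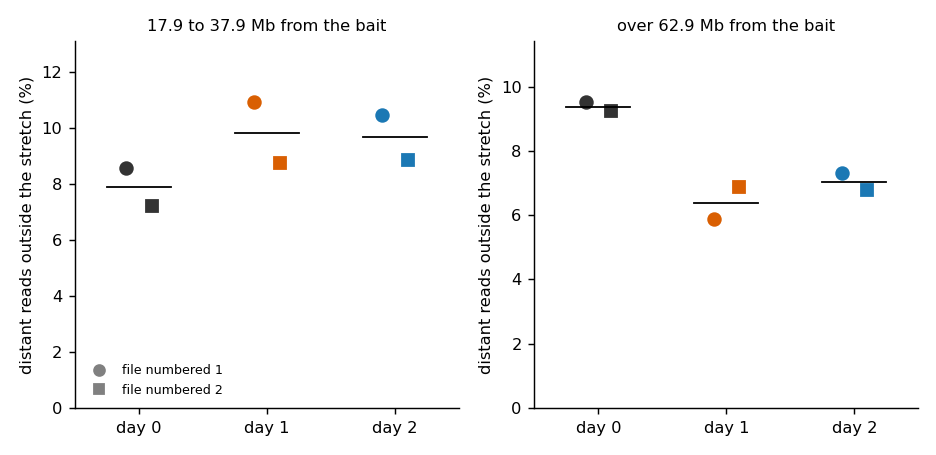
Share of the distant chromosome 10 reads outside the stretch in the region 17.9 to 37.9 Mb from the bait and in the region over 62.9 Mb from it, by day, with 1 point per library and bars for means of 2. In the nearer region both day 0 values (7.21% and 8.59%) lie below all later ones, and in the farther region both (9.25% and 9.51%) lie above.

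Blocks of 5 Mb, a size chosen after the profile was seen, were compared in reads. Of 26 blocks, 2 were higher in all 4 later libraries than in both of day 0, 11 were lower and 13 overlapped. The higher blocks were 80 to 85 Mb, with 1.49% and 1.21% of the distant reads outside the stretch on day 0, 2.1% and 2.04% on day 1, and 2.02% and 1.74% on day 2, and 95 to 100 Mb. The lower blocks included 45 to 50 Mb, with 1.03% and 0.984% on day 0, 0.368% and 0.565% on day 1, and 0.645% and 0.627% on day 2, and 50 to 55 Mb, with 2.04% and 1.79%, then 1.18% and 1.35%, then 1.42% and 1.11%. In captured sites, 2 blocks were higher, 2 lower and 22 overlapped.

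On other chromosomes no window passed. Of 4134 windows of 500 kb, in which captured sites were counted, 0 (0%) had an adjusted p under 0.05 in edgeR for days 1 and 2 together, day 1 or day 2. At an unadjusted p under 0.05 there were 145, 130 and 136 windows (3.51%, 3.14% and 3.29%), with smallest adjusted p of 1, 0.797 and 0.431, and DESeq2 had 7, 12 and 3 and called 0. All 4 later libraries lay above both of day 0 in 236 windows (5.71%) and below both in 265 (6.41%). A window held few captured sites, so the median SE of a log2 change was 0.42 and changes of less than a few-fold were not detectable. Of the windows with the smallest p, adjoining ones at 126.5 to 127 and 127 to 127.5 Mb of chromosome 8 were both higher in 4 of 4 libraries. The first held 1 and 1 captured sites on day 0, 2 and 5 on day 1, and 6 and 9 on day 2, and the second 2 and 2, then 5 and 6, then 9 and 5. The other higher ones lay at 73 to 73.5 Mb of chromosome 5, 104.5 to 105 Mb of chromosome 2 and 121 to 121.5 Mb of chromosome 14, with log2 changes of 1.85, 1.49 and 1.43. The lower ones lay at 54 to 54.5 Mb of chromosome 8, 16.5 to 17 Mb of the X, 44.5 to 45 Mb of chromosome 5, 115.5 to 116 Mb of chromosome 1 and 26 to 26.5 Mb of chromosome 6, from -1.79 to -1.01. For day 1 alone the lowest p were at 54 to 54.5 Mb of chromosome 8, with 11 and 17 captured sites on day 0 and 1 and 1 on day 1, and for day 2 alone at 44.5 to 45 Mb of chromosome 5, with 14 and 14 against 5 and 2. Without the second day 0 library 1 window passed, at 25.5 to 26 Mb of chromosome 16, lower on days 1 and 2 (log2 change -1.95, adjusted p 0.0195).

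The 5 other-chromosome windows with the highest captured share on day 0 overlapped between the groups. On chromosome 6, at 106 to 106.5 Mb, the bait captured 77.3% and 46% of 163 sites on day 0, 49.1% and 49.1% on day 1, and 76.7% and 51.5% on day 2. Divided by a library's captured share over the whole of the other chromosomes, that was 13.65 and 7.57 times on day 0, 20.1 and 11.4 times on day 1, and 10.4 and 10.9 times on day 2. The other 4 lay at 41 to 44 Mb of chromosome 16, at 43.5 to 44, 42 to 42.5, 41.5 to 42 and 41 to 41.5 Mb. Their multiples were 6.51 to 12.6 on day 0 and 7.02 to 14.6 on days 1 and 2. The log2 changes of the 5 ran from -0.08 to 0.26, and none had an unadjusted p under 0.05.

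Summed over whole chromosomes, captured sites differed little. Of 19 chromosomes tested, 0 (0%) passed, 0 had an unadjusted p under 0.05, and the smallest adjusted p in edgeR was 0.817. Log2 changes ran from -0.12 on the X to 0.08 on chromosome 4. Chromosome 4 was the 1 chromosome whose later libraries all lay above both of day 0: relative to its number of sites it was captured 0.68 and 0.725 times as often as the average on day 0, 0.745 and 0.76 on day 1, and 0.739 and 0.781 on day 2. Chromosome 16 was the most captured, at 3.29 and 2.17 on day 0, 2.97 and 2.43 on day 1, and 2.77 and 2.3 on day 2, and the X the least, at 0.426 and 0.527, then 0.387 and 0.477, then 0.419 and 0.495.

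Grouping the other chromosomes by how densely HindIII cuts them showed a difference, which was looked for after other results were seen. HindIII sites are sparser in GC-rich DNA, which is also the more gene-rich, so the number of sites per megabase is a rough proxy for base composition. The 102 megabases with under 250 sites (22271 sites) drew 0.521 and 0.615 times the average reads per site on day 0, 0.673 and 0.728 on day 1, and 0.746 and 0.724 on day 2. All 4 later libraries lay above both of day 0, with a mean of 0.718 ± 0.0312 (SD, n = 4) against 0.568 ± 0.0664 (SD, n = 2). The difference was 0.15, given with no test because the class was chosen after seeing the data, and was 0.189 within number 1 and 0.111 within number 2. Captured sites gave 0.702 and 0.671 on day 0 and 0.74 to 0.835 afterwards. After every library was thinned to 35528 reads, they gave 0.648 and 0.638 on day 0 and 0.718 to 0.831 afterwards, so the groups were also apart at an equal number of other-chromosome reads. The number of sites those reads captured still differed, from 18010 to 24662. The next class, starting at 250 sites per megabase, was likewise apart, at 0.621 and 0.7 on day 0 and 0.783 to 0.848 later. The 2 densest classes were apart the other way round. In the less dense of them, with 779 megabases, the values were 1.108 and 1.069 on day 0 and 1.018 to 1.052 later, and in the densest, with 452 megabases, 1.11 and 1.064 on day 0 and 0.9882 to 1.054 later. As the values are relative to a library's average, this is 1 tilt across the classes, and the classes are not separate results. The day 6 libraries were at 0.708 and 0.7 in the sparsest class, and the B lymphocyte library at 1.57.

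**Figure D5:**
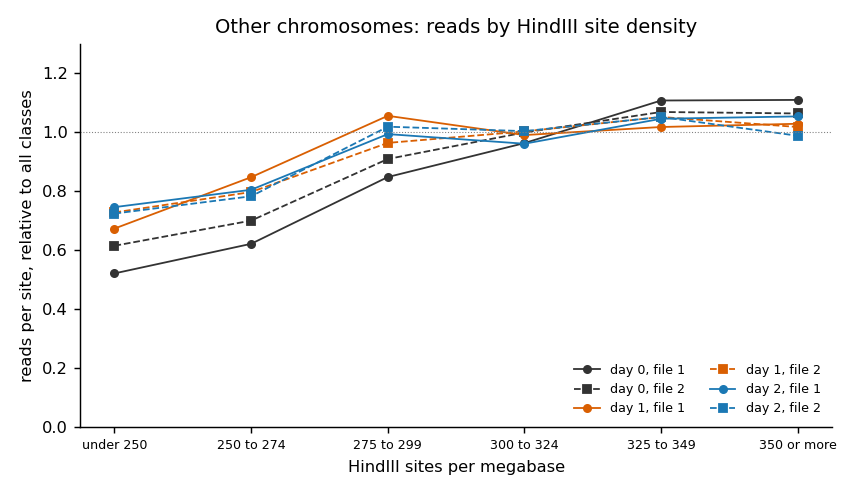
Reads per HindIII site on chromosomes other than 10, relative to all classes of a library, against the number of HindIII sites per megabase, with 1 line per library. In megabases with under 250 sites both day 0 libraries (0.521 and 0.615) lie below the 4 libraries of days 1 and 2 (0.673 to 0.746), and in the 2 densest classes both lie above them.

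On chromosome 10 the number of sites per window moved with the change as well. Across 119 windows of 1 Mb over 2 Mb from the bait and outside the stretch, the Spearman correlation of the number of sites with the log2 change was -0.35, and across the 4134 windows of other chromosomes it was -0.13. Both are descriptions over windows of shared libraries. The windows at 83 and 93 Mb hold 309 and 311 sites, and those at 35 and 48 Mb hold 337 and 366. The part of site density or base composition in the changes at 1 Mb was not tested.

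The likeness of libraries of the same day overlapped with that of libraries of different days. Across the 1148 windows of 100 kb of chromosome 10, Spearman correlations of CPM were 0.796 to 0.827 for the 3 pairs of a day and 0.767 to 0.835 for the 8 pairs of a day 0 with a later library. On other chromosomes they were 0.562 to 0.647 and 0.55 to 0.686. Single sites there were seldom captured again: of 782340 sites, 640098 (81.8%) were captured in no library, 81660 in 1 and 816 in all 6. In all, 2674 sites were captured in both day 0 libraries and in none of the 4 later ones, and 245 in all 4 later libraries and neither of day 0. These counts follow depth and the number of libraries and are not set against each other. The day 0 files held 56599 and 56597 sites with reads and shared 17425 of them (30.8%), so they are not copies of each other.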

How the data were processed

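Reads joined to the Ifng bait were measured in 3T3-L1 cells. The deposited files give, per the labels and file names, 1 read count for each of 823355 HindIII sites; the submitters' processing notes name the build mm9 and Bowtie. The handling of PCR duplicates is not given in the sources used here. PCR reads are not independent molecules, so depth covers counting error only. Sites within 10 kb of the bait were left out. Reads were summed in windows of 100 kb and 1 Mb of chromosome 10, and captured sites (at least 1 read) in windows of 500 kb elsewhere with a mean of at least 3 captured sites. Chromosome 10 windows were filtered with edgeR's filterByExpr by group. As the smallest group has 1 library, 1 library at the cutoff was enough. At 100 kb this kept 1148 windows, against 1267 with no filter and 900 with the 6 libraries alone. All 9 libraries with this bait (days 0, 1, 2 and 6 and a B lymphocyte line, 5 groups) were fitted with edgeR 4.0.16 (R 4.3.3), TMM scaling and the robust quasi-likelihood test, and p-values were adjusted by Benjamini-Hochberg over all windows, with a threshold of 0.05. The quasi-likelihood test gives no SE. The SE of a log2 change was taken as its absolute value divided by the square root of the test's F statistic. DESeq2 1.42.0 was an alternative. Shares for chromosome 10, for sites within 1 Mb of the bait and for the distant stretch were compared by an exact permutation test. It was two-sided, over 15 splits (SciPy 1.17.1, the smaller tail doubled). The fit was tested on simulated data. Where no window passed, the 5 with the smallest p in each direction were named, and where windows passed, all are given. The comparison, the regions and the lists were chosen with earlier results of these data known. Gene lists were not used here, for want of an annotation of build mm9. The numbers 1 and 2 stand only in the deposited names.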

Additional observations from a re-analysis of the deposited data

How the results depend on the processing

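At 100 kb, where no window of chromosome 10 was called, alternatives gave few calls. For both days pooled there was 1 with the replicate block, 1 with windows of 200 kb and 4 with windows of 1 Mb. For day 1 there was 1 each with the replicate block, with no filter, with the 6 libraries alone, with a bait zone of 1 Mb and without the distant stretch, 3 with windows of 200 kb and 5 with 1 Mb, and for day 2 there were 2 with 1 Mb. Leaving out 1 library at a time gave 0 to 1 calls for both days pooled, 0 to 1 for day 1, and 0 to 1 on other chromosomes. At 1 Mb, the pooled count of 4 became 11 with the replicate block, 2 with DESeq2, 7 with a bait zone of 1 Mb and 2 with captured sites, and ran from 2 to 6 without 1 library, with 2 when the second day 0 library was left out. The day 1 count of 5 became 8 with the block, 1 with DESeq2, 2 with the 6 libraries alone and 1 with captured sites, and ran from 1 to 5. The day 2 count of 2 ran from 0 to 3. Deviations of libraries with the same number correlated at 0.433, 0.278 and 0.178 over the 3 pairs of days at 1 Mb, and at 0.104, 0.092 and 0.0987 at 100 kb. With 2 numbers, and none in the labels, whether they pair the libraries is not known.

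The share in the distant stretch (-1.62 points) changed direction with captured sites (0.4417) and in number 2 (0.187), and ran from -9.17 to 5.94 without 1 library. The share within 1 Mb of the bait (0.0125 points) became -0.159 with a bait zone of 100 kb, -0.673 without the stretch, -0.349 on day 2 alone and -0.415 in number 1, and ran from -0.141 to 0.388. The day 1 change of the window at 95.2 to 95.3 Mb became -0.02654 with captured sites. The causes were not tested.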
